A study of Rattus norvegicus with 35 samples.

Results

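Simvastatin pretreatment of rats with biliary cirrhosis was examined in livers taken after hemorrhage and resuscitation, abbreviated H/R, by setting the 8 arrays of treated rats against the 6 arrays of untreated rats, 14 of the 35 arrays of the study. The arrays were chosen by the treatment group in the labels, and all 13439 genes with a probe set of 1 gene symbol were compared. In the simvastatin H/R group (n = 8), rats whose common bile duct had been ligated 4 weeks earlier were gavaged once a day with simvastatin at 5 mg per kg, suspended in distilled water, starting 3 days ahead and ending 1 h ahead of the procedure, and then underwent H/R. The ligated H/R group (n = 6) had the same ligation and H/R without simvastatin, and the labels do not say whether these rats were gavaged with vehicle. A sham procedure in place of H/R was given to ligated rats with simvastatin (simvastatin sham, n = 5) and without it (ligated sham, n = 5), and control rats without ligation had H/R (control H/R, n = 6) or the sham procedure (control sham, n = 5). All ligated rats had weekly vitamin K. The labels name no strain, sex or age, do not give the time between H/R and sampling, and do not state that every array is a separate animal, so the p-values below measure the spread between these samples. The question named in the study's title is how simvastatin affects the injury of cirrhotic livers after H/R.

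Simvastatin inhibits HMG-CoA reductase, the enzyme that makes mevalonate, from which cells build isoprenoids and, through squalene and lanosterol, cholesterol. When sterols in the endoplasmic reticulum fall, the transcription factor SREBP2 is carried to the Golgi, cut free and moved to the nucleus, where it switches on the genes of this pathway, often together with the CCAAT-binding factor NF-Y. Statins are also known to raise the transcription factor Klf2 in endothelial cells, and hemorrhage with resuscitation is known to expose the liver to hypoxia followed by reoxygenation and to cytokine release.

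The livers carried the markers of their labels. The 17 measured hepatocyte function genes had a mean log2 signal per array of 10.73 to 11.29 in simvastatin H/R livers and 10.50 to 11.30 in ligated H/R livers. The 18 measured markers of cholangiocytes, cells that multiply after bile duct ligation, averaged 8.75 in simvastatin H/R livers and 8.63 in ligated H/R livers, against 5.42 in control H/R livers. Signals of the nonspecific probes differed between the H/R groups. The brightest of the 23 nonspecific probes averaged 3.32 ± 0.33 on simvastatin H/R arrays (SD, n = 8) and 4.00 ± 0.27 on ligated H/R arrays (SD, n = 6), which differed beyond the spread (exact two-sided permutation p = 0.0020, adjusted over 7 array measures 0.0140). The gap between the 3' and 5' probe sets of beta-actin, a sign of RNA integrity, was 1.66 ± 0.18 in simvastatin H/R livers and 2.03 ± 0.30 in ligated H/R livers (exact permutation p = 0.0153, adjusted 0.0357). Simvastatin sham replicate 1 stood apart from its group: it had a GAPDH 3' minus 5' difference of 2.20, while the others of its group lay at 0.10 to 0.15. Leaving it out of the fit kept all 182 H/R calls described next. The part of background and RNA integrity in the results was not tested beyond fits that carry each as a covariate, whose effect on the named calls is given with each gene group.

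Enzymes of cholesterol synthesis rose in the simvastatin H/R livers, and a smaller set of genes fell, led by carbonic anhydrase 3 and the cytochrome P450 Cyp2c11, with interleukin 1 genes and mitotic genes among them. In the limma fit over all arrays, 182 of 13439 genes (1.35%) passed an adjusted p of 0.05, called below. Of these, 114 (0.848%) were higher and 68 (0.506%) lower in simvastatin H/R than in ligated H/R livers. Not above background in either H/R group were 9 of the 68 lower genes and 0 of the 114 higher genes. A change of at least 2-fold was seen in 28 of the higher and 23 of the lower genes. At an unadjusted p under 0.05 there were 1932 genes. The median log2 difference over all genes was -0.001. Each gene is represented by its brightest probe set with a single symbol, and all values are normalized log2 signals, so levels of different genes are not set against each other. The signal of the brightest nonspecific probe as a covariate left 89 calls, of which 69 were among the 182, and the beta-actin difference as a covariate left 197, of which 141 were among them. All 182 kept their sign in both fits. A fit of only the 14 H/R arrays of ligated rats gave 155 calls, of which 115 were among the 182, and all 182 kept their sign. Among the genes named below, that fit ended the calls of Tmem97, Serpina6, G0s2, Car4, Il1b, Tlr2, Rac2 and Hsph1. It also ended those of Sesn1, Tsc22d3, Top2a, Col1a1, Tnc, Ifi44 and Id1. The numbers in the sample titles end in 2 digits whose meaning is not stated. These are 12 for 2 simvastatin H/R arrays and 2 ligated H/R arrays, 13 for the other 6 simvastatin H/R arrays, and neither for the remaining ligated H/R arrays. With that ending as a block 20 of the 182 calls were kept and 181 kept their sign, and within ending 12 alone, 2 arrays against 2, no gene was called and 180 kept their sign. The genes named below that kept their call with the block were 14 sterol enzymes, Aacs, Erg28, Car3 and Cyp2c11. Since ending 12 alone occurs in both H/R groups, the ending and simvastatin cannot be fully told apart for any gene.

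Of the 7 measured mevalonate enzymes, 6 rose and none fell, with a median log2 difference of 1.68. HMG-CoA reductase, the target of simvastatin, was not among these 7 of the 9 list entries. Idi1, the isomerase that makes dimethylallyl pyrophosphate, had a lowest, median and highest log2 signal of 10.76, 11.24 and 11.31 in simvastatin H/R livers, and of 8.39, 8.64 and 8.95 in ligated H/R livers. Every treated array lay above every untreated one, and the difference was 5.68-fold (log2 2.51, SE 0.14, limma adjusted p = 1.64e-14), the smallest p of the comparison. Acat2, which joins acetyl-CoA units at the entry of the pathway, measured 8.30, 8.66 and 9.0 in simvastatin H/R livers, and 5.91, 6.26 and 6.47 in ligated H/R livers, a 5.21-fold rise (adjusted p = 4.38e-12). Mvd, the mevalonate pyrophosphate decarboxylase, measured 6.27, 7.08 and 7.59 in simvastatin H/R livers, and 3.99, 4.63 and 5.22 in ligated H/R livers, a 5.02-fold rise (adjusted p = 3.84e-09). The ranges of both genes were well apart. Pmvk and Mvk, the kinases that phosphorylate mevalonate, rose 3.21-fold and 3.20-fold, and Fdps, the farnesyl pyrophosphate synthase, rose 2.74-fold. All 6 had groups that did not overlap, against 0.625% of all genes with that pattern in the higher direction. Ggps1, which makes geranylgeranyl pyrophosphate on a side branch, did not pass: it measured 5.32, 5.72 and 6.02 in simvastatin H/R livers, and 4.90, 5.49 and 5.67 in ligated H/R livers (log2 difference 0.30, SE 0.14, adjusted p = 0.306).

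All 11 measured enzymes between squalene and cholesterol rose, with a median log2 difference of 1.66, and in 10 of them the groups did not overlap. Hsd17b7, which reduces the 3-keto group of sterol intermediates, showed the largest rise of all called genes. Its lowest, median and highest log2 signals were 7.06, 7.70 and 8.11 in simvastatin H/R livers, and 3.82, 4.58 and 5.66 in ligated H/R livers, an 8.47-fold difference (log2 3.08, SE 0.26, adjusted p = 4.31e-10). The lowest treated array was brighter than the highest untreated one. Msmo1, the first enzyme in removing the methyl groups at the sterol C4 position, measured 10.54, 10.73 and 11.12 in simvastatin H/R livers, and 7.55, 8.45 and 8.78 in ligated H/R livers, a 5.49-fold rise. Fdft1, which makes squalene, rose 2.55-fold, Sqle, which oxidises it, rose 3.16-fold, and Lss, which closes it to lanosterol, rose 3.17-fold. Cyp51, the lanosterol demethylase, rose 3.09-fold and reached 11.35 in the brightest treated liver. Tm7sf2, a sterol reductase, rose 3.83-fold, and Nsdhl, the partner of Msmo1 in removing the C4 methyl groups, rose 2.39-fold. Sc5d and Dhcr7, which act in the last steps, rose 2.90-fold and 3.39-fold. Ebp, the sterol isomerase, rose 2.28-fold and was the member whose groups overlapped, with 9.17 to 10.18 in simvastatin H/R livers and 7.87 to 9.20 in ligated H/R livers.

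**Figure D1:**
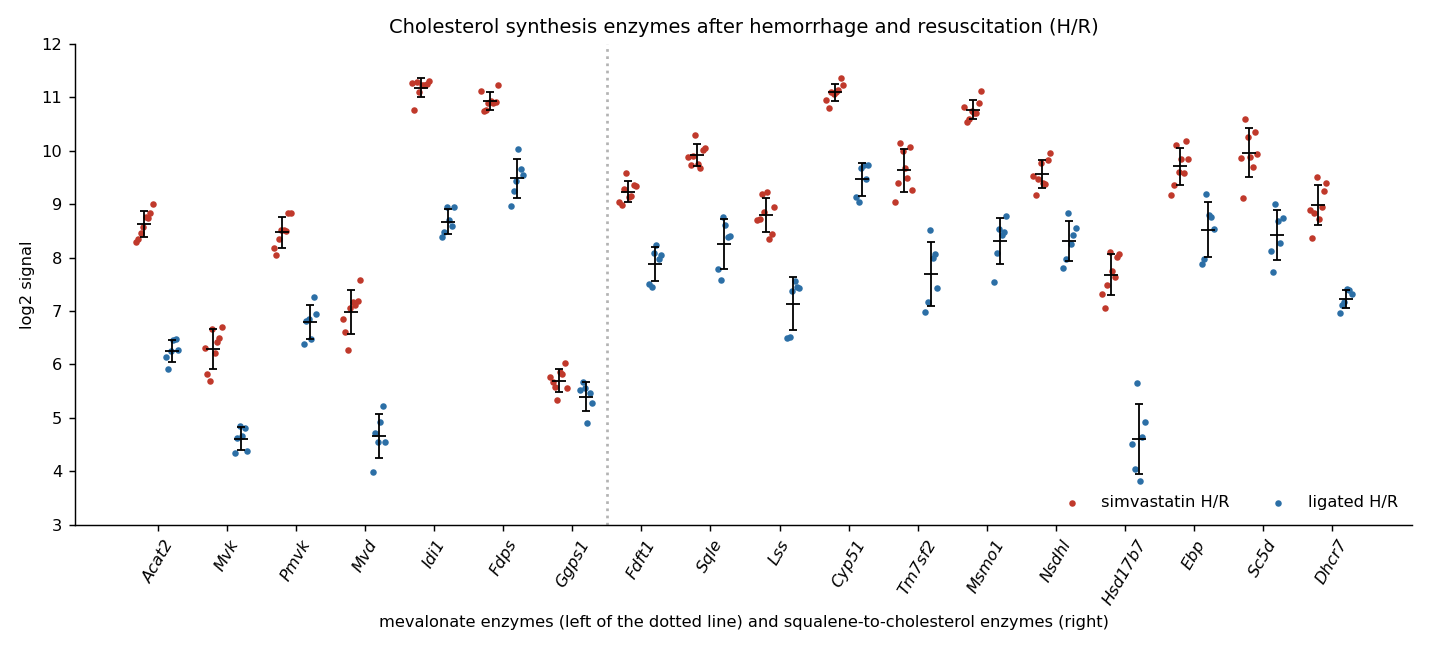
Log2 signal of the 18 measured cholesterol synthesis enzymes in simvastatin H/R livers (red, left of each pair, n = 8) and ligated H/R livers (blue, right, n = 6), with one point per array and bars at the mean ± SD. The enzymes run in the order of the pathway, with the mevalonate enzymes left of the dotted line. Separate clouds are seen for 16 of the 18 genes, and Ggps1 and Ebp are the overlapping ones.

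The calls of these 17 enzymes did not hang on single arrays. All 17 were kept when each of the 14 arrays was left out in turn, with the nonspecific signal as a covariate and with the beta-actin difference as a covariate. With the title ending as a block the 3 that did not pass were Tm7sf2, Nsdhl and Ebp.

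Of 8 measured genes of sterol sensing and LDL uptake, 3 rose and none fell. Insig1, which holds SREBP in the endoplasmic reticulum when sterol is plentiful and is itself an SREBP target, measured 11.10, 11.43 and 11.71 in simvastatin H/R livers, and 9.75, 10.69 and 11.08 in ligated H/R livers. The groups touched without overlapping, and the rise was 1.78-fold (adjusted p = 0.00148). Stard4, a carrier of cholesterol between membranes, rose 1.68-fold, and Tmem97, a binding partner of the NPC1 cholesterol transporter, rose 1.60-fold. The Tmem97 call was lost without ligated H/R replicate 1 or 2, and those of Stard4 and Tmem97 with the nonspecific signal as a covariate. A second Tmem97 probe set gave a log2 difference of 0.33, and the call was also lost with the mean of probe sets. The other 5 did not pass. The log2 difference was 0.08 for Srebf2, which encodes SREBP2 itself, 0.11 for its escort Scap, -0.10 for Insig2, and -0.09 for Mylip, the ligase that marks the LDL receptor for degradation. Pnpla3, a lipid droplet protein, had 3.72 to 5.29 in simvastatin H/R livers and 3.17 to 3.70 in ligated H/R livers, where it was not above background (adjusted p = 0.467).

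Since sterol synthesis genes share control elements in their promoters, the sequence upstream of the 5 sterol genes with the largest rise is shown, read from the RefSeq promoter table of build GRCr8. Each run holds the 250 bases before the annotated start site, 5′ to 3′ on the strand of the gene, with matches to CCAAT or TCACNCCA, on either strand, in capitals. The letters CCAAT are the NF-Y box, read as ATTGG on the other strand, and TCACNCCA is the core of a sterol regulatory element. The motifs do not overlap each other in these runs.
Hsd17b7 upstream, chr13:84722755-84723004, minus strand: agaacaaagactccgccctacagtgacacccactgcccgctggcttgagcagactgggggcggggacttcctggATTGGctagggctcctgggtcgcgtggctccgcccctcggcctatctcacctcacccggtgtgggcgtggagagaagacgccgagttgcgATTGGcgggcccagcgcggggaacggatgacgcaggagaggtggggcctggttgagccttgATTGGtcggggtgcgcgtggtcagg
Idi1 upstream, chr17:66547525-66547774, minus strand: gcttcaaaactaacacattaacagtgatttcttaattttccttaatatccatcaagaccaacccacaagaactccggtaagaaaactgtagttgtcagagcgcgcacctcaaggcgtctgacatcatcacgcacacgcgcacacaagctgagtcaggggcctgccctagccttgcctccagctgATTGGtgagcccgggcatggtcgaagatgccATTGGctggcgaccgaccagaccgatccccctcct
Msmo1 upstream, chr16:29746863-29747112, plus strand: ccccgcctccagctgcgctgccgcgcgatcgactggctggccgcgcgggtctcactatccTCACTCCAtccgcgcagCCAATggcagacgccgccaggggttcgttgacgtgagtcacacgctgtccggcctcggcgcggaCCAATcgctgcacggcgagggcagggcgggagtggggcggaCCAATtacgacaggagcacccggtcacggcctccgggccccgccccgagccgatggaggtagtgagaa
Acat2 upstream, chr1:50100590-50100839, plus strand: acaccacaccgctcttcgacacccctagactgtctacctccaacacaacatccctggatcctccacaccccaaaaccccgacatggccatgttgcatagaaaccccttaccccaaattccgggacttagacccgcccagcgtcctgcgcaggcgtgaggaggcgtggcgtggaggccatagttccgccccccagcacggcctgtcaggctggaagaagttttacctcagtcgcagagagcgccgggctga
Mvd upstream, chr19:67414975-67415224, minus strand: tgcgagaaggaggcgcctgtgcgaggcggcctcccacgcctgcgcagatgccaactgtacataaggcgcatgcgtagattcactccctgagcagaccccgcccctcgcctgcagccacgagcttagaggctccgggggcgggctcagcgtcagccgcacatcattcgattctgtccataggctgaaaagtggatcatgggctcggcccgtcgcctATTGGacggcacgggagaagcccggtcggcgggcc

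Hsd17b7 and Msmo1 held 3 CCAAT boxes each, Idi1 held 2, Mvd held 1 and Acat2 held none, while the sterol regulatory core was found once, in Msmo1. A promoter entry was found for 22 of the 26 measured genes of the mevalonate, squalene-to-cholesterol and sterol sensing lists. Among the 16 with a called rise, 13 held a CCAAT box, as did 5 of the 6 that were not called. The box was present in 34.0% of all 33469 promoters of the table, which lists some genes more than once. The sterol regulatory core was in 1 of the 16, in 1 of the 6 (Srebf2) and in 3.24% of all promoters. These matches describe letters in a window and not binding.

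Fatty acid synthesis moved in 3 of 16 measured members. Acss2, which makes acetyl-CoA from acetate, measured 8.87, 9.24 and 9.86 in simvastatin H/R livers, and 7.09, 7.47 and 7.79 in ligated H/R livers. The ranges were apart, and the rise was 3.52-fold (adjusted p = 2.97e-07). Elovl6, which lengthens fatty acids, rose 3.71-fold and Acly, which makes acetyl-CoA from citrate, rose 1.99-fold. The list as a whole had a median log2 difference of 0.19. Aacs, which activates acetoacetate for sterol and fatty acid synthesis and belongs to none of these lists, rose 3.77-fold (adjusted p = 2.81e-10), with 5.95 to 6.70 in simvastatin H/R livers and 4.23 to 4.71 in ligated H/R livers. Of 16 fatty acid oxidation genes, Acaa2, the mitochondrial thiolase, rose 1.63-fold (adjusted p = 0.0123) and none fell. That call was lost without ligated H/R replicate 1, where the adjusted p was 0.0579, as was the call of Acly, at 0.0692. Both calls were also lost with the nonspecific signal as a covariate. A dimmer Acaa2 probe set gave a log2 difference of 0.32, and the Acaa2 call was lost with the mean of probe sets.

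Among 11 measured genes of cholesterol efflux and LXR response, 18 of isoprenoid use and small GTPases, and 19 of bile acid synthesis and transport, none was called. Lpcat3, a phospholipid remodelling enzyme, had the smallest p of the efflux list, with 7.26 to 7.76 in simvastatin H/R livers and 6.99 to 7.16 in ligated H/R livers, which did not overlap (adjusted p = 0.0864). Abcg1, a cholesterol exporter, had a log2 difference of -0.62 (adjusted p = 0.108). Rhoa, a GTPase that needs a geranylgeranyl anchor, had a log2 difference of -0.27 (adjusted p = 0.220). Cyp8b1, which sets the cholic acid share of bile acids, had a log2 difference of 1.76 with a wide spread: 5.55, 6.85 and 9.12 in simvastatin H/R livers, and 4.17, 4.75 and 7.58 in ligated H/R livers (SE 0.54, adjusted p = 0.0991). Abcb4, the phospholipid exporter of the canaliculus, had a log2 difference of 0.83 (adjusted p = 0.131). Both passed without ligated H/R replicate 3.

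The largest fall was in Car3, carbonic anhydrase 3, an abundant protein of the male rat liver. Its lowest, median and highest log2 signals were 2.31, 2.75 and 4.50 in simvastatin H/R livers, and 6.91, 7.75 and 9.17 in ligated H/R livers. In the simvastatin H/R group its mean was not above background, so the fall was at least 20.2-fold (log2 difference -4.87, SE 0.50, adjusted p = 3.44e-08). A dimmer probe set of the gene gave a log2 difference of -1.24. Cyp2c11, a cytochrome P450 abundant in male rat livers, measured 2.98, 3.58 and 5.12 in simvastatin H/R livers, and 6.40, 7.93 and 8.69 in ligated H/R livers, a 16.5-fold fall (adjusted p = 7.07e-07). Its treated median lay near background, which averaged 3.32 on simvastatin H/R arrays. For both genes all treated arrays lay below all untreated arrays, a pattern that 0.335% of all genes showed in the lower direction. Both calls were kept in each of the 14 fits that left out an array and with the title ending as a block. In rats without ligation the median signals were far above both groups, at 12.42 for Car3 and 12.29 for Cyp2c11 in control H/R livers.

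Further liver-secreted and transport proteins were among the largest falls. Obp3, a lipocalin, had 2.48, 2.94 and 4.14 in simvastatin H/R livers, not above background, and 3.34, 5.22 and 6.90 in ligated H/R livers, a fall of at least 3.76-fold (adjusted p = 0.0270). Serpina6, the corticosteroid-binding globulin, fell 3.34-fold (adjusted p = 0.0431), with 4.87 to 8.31 in simvastatin H/R livers and 7.82 to 9.01 in ligated H/R livers. Ust5r, annotated as a transport protein, fell 3.22-fold (adjusted p = 0.0134). The ranges of these 3 overlapped. Leaving out 1 array ended the call of Obp3 in 5 of 14 fits and of Serpina6 in 9 of 14, and of Ust5r in none. All 3 calls were lost with the nonspecific signal as a covariate, and that of Serpina6 also with the beta-actin difference. G0s2, an inhibitor of triglyceride lipase, fell 2.70-fold at an adjusted p of 0.0495, and its call was lost in 11 of the 14 fits. Car4, a membrane-bound carbonic anhydrase, fell at least 1.73-fold at the same adjusted p, and its call was lost in 9 of the 14, among them the fit without ligated H/R replicate 2, the brightest untreated array at 6.38. Each covariate also ended the calls of G0s2 and Car4. A dimmer Car4 probe set gave a log2 difference of -0.0098, and the Car4 call was lost with the mean of probe sets.

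The interleukin 1 genes fell, and the other measured cytokines were mostly lower without passing. Of 26 measured cytokines, chemokines and adhesion molecules, 2 passed as lower, none as higher, and the median log2 difference was -1.05, against -0.001 over all genes. The sign was negative for 25 of the 26. Il1a, which encodes interleukin 1 alpha, measured 4.48, 5.26 and 8.09 in simvastatin H/R livers, and 7.29, 7.98 and 8.24 in ligated H/R livers. One treated array, replicate 1, lay in the untreated range and the other treated arrays lay below it, and the fall was 5.12-fold (log2 -2.36, SE 0.55, adjusted p = 0.0201). Il1b, the secreted interleukin 1 beta, measured 7.64, 8.95 and 11.14 in simvastatin H/R livers, and 10.31, 10.54 and 11.40 in ligated H/R livers, a 3.06-fold fall (adjusted p = 0.0380). Its highest treated array was again replicate 1. Cxcl2, a neutrophil chemoattractant, had 7.53, 9.27 and 11.05 in simvastatin H/R livers, and 10.08, 10.61 and 11.40 in ligated H/R livers, and did not pass (log2 difference -1.44, adjusted p = 0.0901). It passed without simvastatin H/R replicate 1. The Il1a call was lost without ligated H/R replicate 1 or 4, and the Il1b call in 9 of 14 such fits. With the nonspecific signal as a covariate, neither Il1a nor Il1b passed, and Il1b did not pass with the beta-actin difference either.

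Slpi, the secretory leukocyte protease inhibitor, measured 6.12, 7.23 and 8.65 in simvastatin H/R livers, and 8.20, 9.20 and 10.68 in ligated H/R livers, a 3.99-fold fall (adjusted p = 0.0133). Dusp2, a phosphatase of MAP kinases in activated immune cells, fell 2.76-fold (adjusted p = 0.0132). The ranges of both genes overlapped. The Slpi call was lost without ligated H/R replicate 2 or 4, and both calls with the nonspecific signal as a covariate. Chosen after their values were seen, Tlr2, a receptor for bacterial lipoproteins, fell 2.21-fold (adjusted p = 0.0460) and Rac2, the GTPase of the leukocyte oxidase, fell 1.91-fold (adjusted p = 0.0228), with overlapping groups in both. Leaving out 1 array ended the Tlr2 call in 8 of 14 fits and the Rac2 call in 3 of 14, and the nonspecific covariate ended that of Tlr2.

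Markers of white blood cells mostly had negative differences beside these genes, without a call. Of 9 measured neutrophil markers 8 had a negative difference, with a median of -0.54, and 5 were not above background in either H/R group. Their mean log2 signal per array was 4.50 to 5.51 in simvastatin H/R livers and 4.60 to 6.64 in ligated H/R livers. Mmp9, a neutrophil gelatinase, was not above background in either group (log2 difference -0.73, adjusted p = 0.0876). Csf3r, the G-CSF receptor, was not above background in simvastatin H/R livers and was at least 2.21-fold lower there (adjusted p = 0.105). Mmp9 passed in 3 of 14 fits without 1 array and Csf3r in 1 of 14. The calprotectin subunit gene S100a8 had a log2 difference of -1.45, with 5.76, 6.72 and 8.43 in simvastatin H/R livers, and 6.33, 8.38 and 10.29 in ligated H/R livers (adjusted p = 0.206). Of 15 Kupffer cell and macrophage markers 13 had a negative difference, with a median of -0.11 and mean signals of 7.42 to 8.39 in simvastatin H/R livers and 7.69 to 8.80 in ligated H/R livers. Cd5l, a macrophage-secreted protein, had a log2 difference of -1.19 (adjusted p = 0.141), and Itgam, an integrin of myeloid cells, of -0.78 (adjusted p = 0.147). All 17 lymphocyte markers had a negative difference, with a median of -0.19, of which 10 were not above background in either group. The smallest p was that of Lck, a T cell kinase (log2 difference -0.44, adjusted p = 0.205). The part of these cells in the inflammatory falls was not tested. In whole liver RNA, fewer cells of a type and less RNA per cell cannot be told apart. Background was also lower on the treated arrays. The brightest nonspecific probe averaged 3.32 on simvastatin H/R arrays and 4.00 on ligated H/R arrays. The part of this shift in the signs of markers not above background was not tested.

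**Figure D2:**
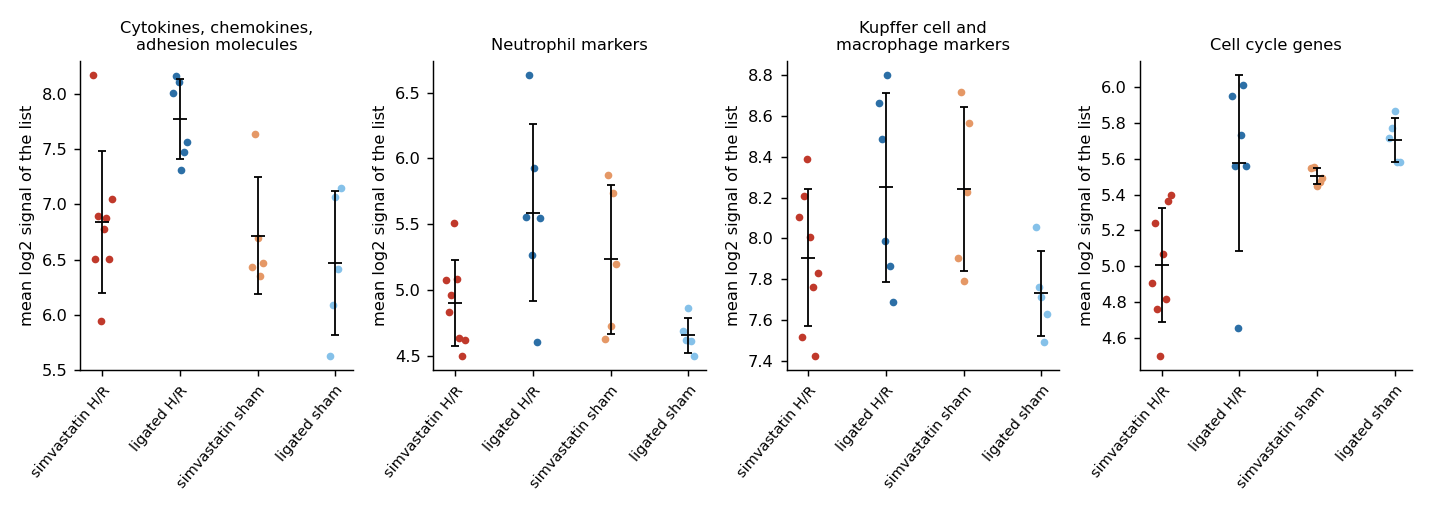
Mean log2 signal of the measured members of 4 gene lists on each array of the ligated groups, from left simvastatin H/R (n = 8), ligated H/R (n = 6), simvastatin sham (n = 5) and ligated sham (n = 5), with bars at the mean ± SD. The cytokine list averaged 6.84 in simvastatin H/R livers and 7.77 in ligated H/R livers, with 1 treated array at 8.18. The cell cycle list averaged 5.01 in simvastatin H/R livers and 5.58 in ligated H/R livers.

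Few heat shock and other stress genes were called. Of 13 heat shock genes Hsph1, a nucleotide exchange factor of Hsp70, fell 1.96-fold (adjusted p = 0.0323), with 7.91, 8.17 and 9.08 in simvastatin H/R livers, and 8.53, 9.43 and 9.99 in ligated H/R livers, and its call was lost in 8 of 14 fits without 1 array and with each covariate. The list had a negative sign in 11 of 13 members and a median of -0.30, with Hspd1, a mitochondrial chaperonin, at -0.30 (adjusted p = 0.141) and the small heat shock gene Hspb1 at -1.12 (adjusted p = 0.159). None of 21 genes of the unfolded protein and integrated stress response was called, and Asns, the asparagine synthetase, had the smallest p (log2 difference -0.53, adjusted p = 0.167). None of 16 NRF2 targets and antioxidants was called: Txnrd1, the thioredoxin reductase, had a difference of -0.47 (adjusted p = 0.0675), Sod1, the superoxide dismutase of the cytosol, -0.29 (adjusted p = 0.0758), and Hmox1, heme oxygenase 1, -0.82 (adjusted p = 0.139). Txnrd1 passed in 2 of 14 fits without 1 array and Hmox1 in 1 of 14. None of 19 hypoxia response genes was called, with Slc2a1, a glucose transporter, at -0.98 (adjusted p = 0.194), and none of 20 immediate early genes. Among 12 p53 targets Sesn1, a leucine-sensing inhibitor of mTORC1, rose 1.84-fold (adjusted p = 0.0460), and among 14 genes of gluconeogenesis and glucocorticoid response Tsc22d3, the glucocorticoid-induced leucine zipper gene, rose 1.91-fold (adjusted p = 0.0486). Each of these last calls was lost in 12 of 14 fits without 1 array and with each covariate. None of 16 cell death genes was called, with Ripk3, the kinase of necroptosis, at a log2 difference of -0.66 (adjusted p = 0.175).

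Mitotic genes lay lower in the simvastatin H/R livers. All 26 measured cell cycle genes had a negative difference, with a median of -0.53, against -0.001 over all genes. Of the 26, 3 passed as lower, against 0.506% of all genes. In sham rats the list had a median of -0.29 with simvastatin, 7 of the 26 were positive and none was called. The signs of members were counted and not tested, here and for the other lists. Birc5, or survivin, which guides chromosomes at mitosis, measured 3.09, 3.32 and 3.94 in simvastatin H/R livers, and 4.14, 4.49 and 4.77 in ligated H/R livers. The groups did not overlap, and the fall was 2.09-fold (adjusted p = 0.000994), kept in all 14 fits without 1 array. Top2a, the topoisomerase of dividing cells, measured 3.65, 4.58 and 5.58 in simvastatin H/R livers, and 4.02, 6.09 and 6.88 in ligated H/R livers, a 2.34-fold fall (adjusted p = 0.0388) whose call was lost in 9 of the 14 fits and with the beta-actin difference as a covariate. Cdc20, an activator of the anaphase-promoting complex, fell 1.58-fold (adjusted p = 0.0189), a call lost without ligated H/R replicate 1, 4 or 5. Ligated H/R replicate 3 had the lowest untreated list level, at 4.65, and without single arrays the number of lower members ranged between 1 and 15. The brightest nonspecific probe averaged 4.00 on ligated H/R arrays, near the signals of Birc5, and with it as a covariate 5 members passed. With the beta-actin difference as a covariate 3 did, and with the title ending as a block 0.

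Of 28 matrix and stellate cell genes 2 fell, against 0.506% of all genes called lower. Col1a1, a chain of type I collagen, measured 4.64, 5.80 and 6.34 in simvastatin H/R livers, and 6.23, 6.51 and 7.24 in ligated H/R livers, a 1.89-fold fall (adjusted p = 0.0199). Loxl2, a collagen crosslinking enzyme, fell 1.78-fold (adjusted p = 0.0282), with 4.83 to 5.67 in simvastatin H/R livers and 5.74 to 6.80 in ligated H/R livers, which did not overlap. Leaving out 1 array ended the Col1a1 call in 3 of 14 fits and the Loxl2 call in 5 of 14, and each covariate ended that of Loxl2. Col1a2, the partner chain of Col1a1, stood just outside the threshold (log2 difference -0.64, adjusted p = 0.0531) and passed in 4 of the 14 fits. The matrix list had a median of -0.19. Tnc, the matrix glycoprotein tenascin C, chosen after its values were seen, fell at least 1.55-fold, not above background in the simvastatin H/R group (adjusted p = 0.0486), a call lost in 10 of the 14 fits and with the beta-actin covariate.

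**Figure D3:**
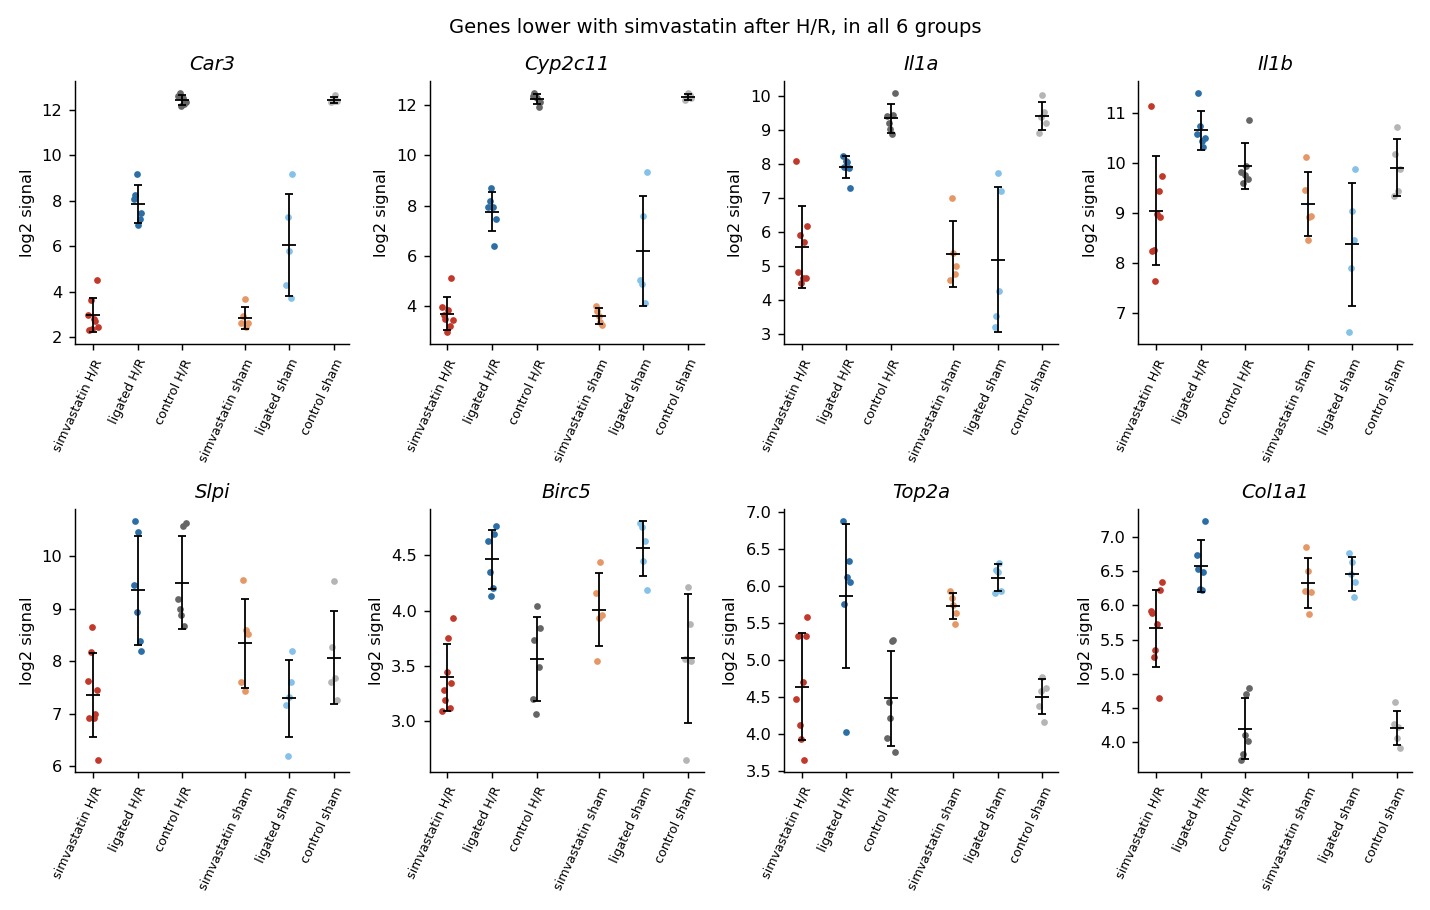
Log2 signal of 8 genes that were lower in simvastatin H/R than in ligated H/R livers, in all 6 groups, with one point per array and bars at the mean ± SD. In each panel the 3 H/R groups stand left of the 3 sham groups. Car3 and Cyp2c11 lie near 12 in control livers, lower in ligated livers and lowest in both simvastatin groups. Il1a has 1 simvastatin H/R array, at 8.09, among the ligated H/R arrays, and its sham groups overlap.

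Lists of hepatic function held few calls. None of 17 hepatocyte function genes passed, with Cps1, the first enzyme of the urea cycle, at a log2 difference of 0.21 (adjusted p = 0.251) and Apoa1, an apolipoprotein of HDL, at 0.25 (adjusted p = 0.366). Of 15 cytochrome P450 and drug metabolism genes Cyp2c11 alone was called, and the median was 0.03. None of 20 acute phase proteins, 10 MHC class II genes, 16 clock genes, 18 cholangiocyte markers, 11 endothelial markers, 5 red cell markers and 4 mesothelial markers was called. The cholangiocyte marker with the smallest p was the keratin gene Krt8 (log2 difference 0.27, adjusted p = 0.293). Among endothelial markers Stab2, a scavenger receptor of sinusoids, had a difference of -1.35 (adjusted p = 0.202), and Kdr, the VEGF receptor, of -0.45 (adjusted p = 0.233). Of 21 interferon-stimulated genes Ifi44 rose at least 1.25-fold (adjusted p = 0.0359), not above background in the ligated H/R group, and its call was lost in 8 of 14 fits without 1 array and with each covariate.

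Klf2 and Nos3, genes of endothelial protection linked to statins, did not pass. Klf2, a transcription factor induced by shear stress, measured 7.37, 8.38 and 9.03 in simvastatin H/R livers, and 7.09, 7.55 and 8.24 in ligated H/R livers. Most treated arrays lay above the untreated median, and the difference of 1.74-fold had an adjusted p of 0.0849. It passed in 1 of the 14 fits without 1 array, that without simvastatin H/R replicate 3. Klf2 also passed with array weights, a setting that gave 744 H/R calls in place of 182. Klf2 was not alone in this. Other genes that did not pass as reported, among them Abcg1, Sod1, Stab2 and Lpcat3, were also under 0.05 in some alternative setting. Nos3, the endothelial nitric oxide synthase, was not above background in either group, with medians of 3.33 in both (log2 difference -0.02, adjusted p = 0.979).

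**Figure D4:**
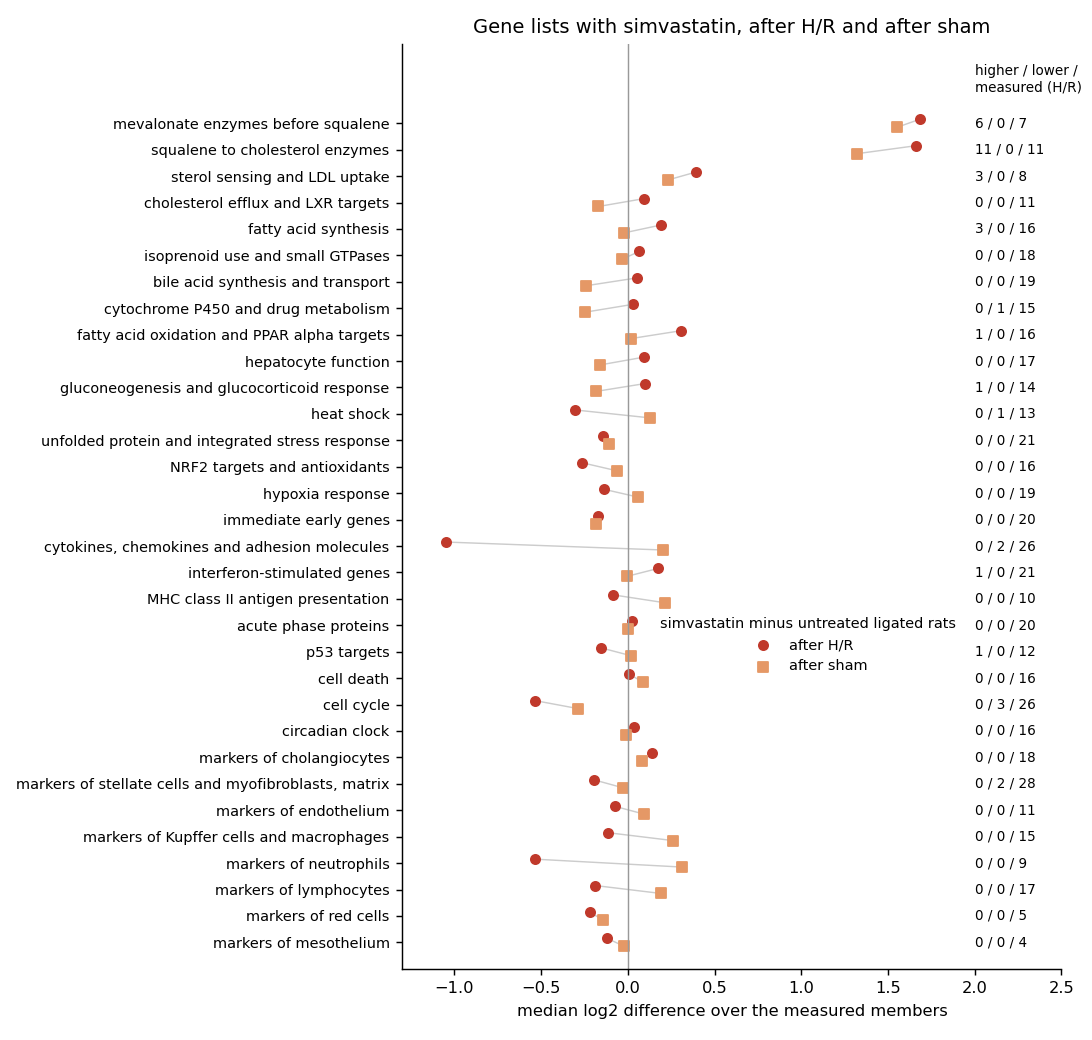
Median log2 difference of simvastatin against untreated ligated rats over the measured members of 32 gene lists, after H/R (circles) and after the sham procedure (squares), with the number of members higher, lower and measured after H/R at the right. The mevalonate and squalene-to-cholesterol lists lie at 1.68 and 1.66 after H/R, and the cytokine list lies at -1.05 after H/R and 0.20 after sham.

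The same drug comparison in sham rats uses other arrays. Simvastatin sham against ligated sham gave 105 calls (0.781%), 85 higher (0.632%) and 20 lower (0.149%). The calls numbered 168 without simvastatin sham replicate 1 and 66 without ligated sham replicate 1. With only the sham arrays of ligated rats in the fit it gave 22, all higher. Of the H/R calls 49 were also called in sham rats, 48 of them in the same direction, which is 26.9% of the H/R calls and 46.7% of the sham calls. Among the 114 genes higher after H/R, 110 (96.5%) had a positive difference in sham rats and 43 were called higher there. Among the 68 lower genes, 52 (76.5%) had a negative difference in sham rats and 5 were called lower there. Over all genes 63.4% had the same sign.

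Sterol enzymes were also higher with simvastatin in sham rats, where 6 of 7 mevalonate enzymes and 9 of 11 squalene-to-cholesterol enzymes were called. Idi1 measured 11.29, 11.20, 11.73, 10.93 and 11.37 in simvastatin sham livers, and 8.74, 8.54, 8.89, 8.98 and 8.62 in ligated sham livers. All treated values were above all untreated ones, and the sham difference of 2.55 stood beside 2.51 after H/R (difference of the 2 effects -0.04, unadjusted p = 0.85). Hsd17b7 measured 7.55, 7.98, 8.83, 6.78 and 7.91 in simvastatin sham livers, and 5.77, 4.85, 4.85, 5.66 and 5.64 in ligated sham livers. Its log2 difference was 2.46 (SE 0.31) in sham rats and 3.08 (SE 0.26) after H/R, and the difference of the 2 effects was 0.62 (SE 0.40, adjusted p = 0.992). The median of the squalene-to-cholesterol list was 1.66 after H/R and 1.32 in sham rats, that of the mevalonate list 1.68 after H/R and 1.55 in sham rats, and no member differed between the settings after adjustment.

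Car3 and Cyp2c11 were also lower with simvastatin in sham rats when all 35 arrays were fitted. Car3 measured 2.64, 2.94, 3.66, 2.43 and 2.63 in simvastatin sham livers, and 4.28, 7.28, 5.80, 3.73 and 9.18 in ligated sham livers. Cyp2c11 measured 4.02, 3.80, 3.60, 3.37 and 3.26 in simvastatin sham livers, and 5.03, 4.87, 7.60, 4.13 and 9.34 in ligated sham livers. All treated values lay below all untreated ones for both genes, and the untreated values spread over a wide range. Car3 was not above background in the simvastatin sham group, so its sham difference is a bound of at least 6.47-fold lower (adjusted p = 0.00193). The log2 difference of Cyp2c11 was -2.59 (adjusted p = 0.0132), and it did not pass for a difference between H/R and sham rats (adjusted p = 0.992). The Cyp2c11 mean of 3.61 in simvastatin sham livers lay near the background of 3.26 in that group. With only the sham arrays of ligated rats in the fit neither gene passed (adjusted p 0.281 for Car3 and 0.399 for Cyp2c11).

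Il1b and the neutrophil markers were not lower with simvastatin in sham rats. Il1b measured 9.47, 10.12, 8.47, 8.92 and 8.94 in simvastatin sham livers, and 6.62, 7.89, 9.04, 8.47 and 9.88 in ligated sham livers, which overlapped. Its log2 difference was 0.80 in sham rats and -1.61 after H/R, and the difference of the 2 effects, -2.42, had an unadjusted p of 0.00054 and an adjusted p of 0.53. Slpi had 7.60, 9.54, 7.44, 8.60 and 8.52 in simvastatin sham livers, and 7.17, 6.19, 7.32, 7.59 and 8.20 in ligated sham livers, a sham difference of 1.04 beside -2.0 after H/R (difference of the effects -3.04, SE 0.68, adjusted p = 0.366). The cytokine list had a median difference of 0.20 in sham rats, with 21 of 26 members positive, and 10 of the 26 had an unadjusted p under 0.05 for the difference between settings, against 4.87% of all genes. All 9 neutrophil markers were positive in sham rats, with a median of 0.31. None of the 26 cytokine genes or 9 neutrophil markers differed after adjustment.

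Between the settings, 1 gene of 13439 (0.00744%) differed at an adjusted p of 0.05, and 654 did at an unadjusted p under 0.05. It was Pira2, a paired immunoglobulin-like receptor gene of myeloid cells with several close relatives. Pira2 had 3.88, 4.57 and 5.44 in simvastatin H/R livers, and 5.10, 5.50 and 6.07 in ligated H/R livers, a 2.09-fold fall (adjusted p = 0.0199). In sham rats it had 5.66, 5.93, 5.19, 5.80 and 5.21 in simvastatin sham livers, and 4.66, 3.73, 5.06, 4.27 and 3.18 in ligated sham livers. Treated rats were lower after H/R and higher after sham, and the difference of the effects was -2.44 (SE 0.38, adjusted p = 0.00385). A second probe set of Pira2 gave 1.04 after H/R and the other -0.10, and the mean of its probe sets gave a difference of effects of -0.57 with an adjusted p of 0.883, so the call rests on 1 probe set. The H/R call of Pira2 was lost without ligated H/R replicate 1 or 2 and with the nonspecific covariate. Of the other 7 genes with the smallest p for this difference, none passed. Dock9, an exchange factor of Cdc42, had 0.86 (adjusted p = 0.0575), with a log2 difference of 0.35 after H/R and -0.51 in sham rats. Beside Slpi, the macrophage gene Cd5l had -2.60, the interferon-induced myeloid gene Mnda -1.38 (0.03 after H/R and 1.41 in sham rats), Plac8 -1.15, the mitochondrial malic enzyme gene Me2 -1.08 and the homeobox gene Dlx1, not above background in either H/R group, 0.57, all at an adjusted p of 0.532.

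**Figure D5:**
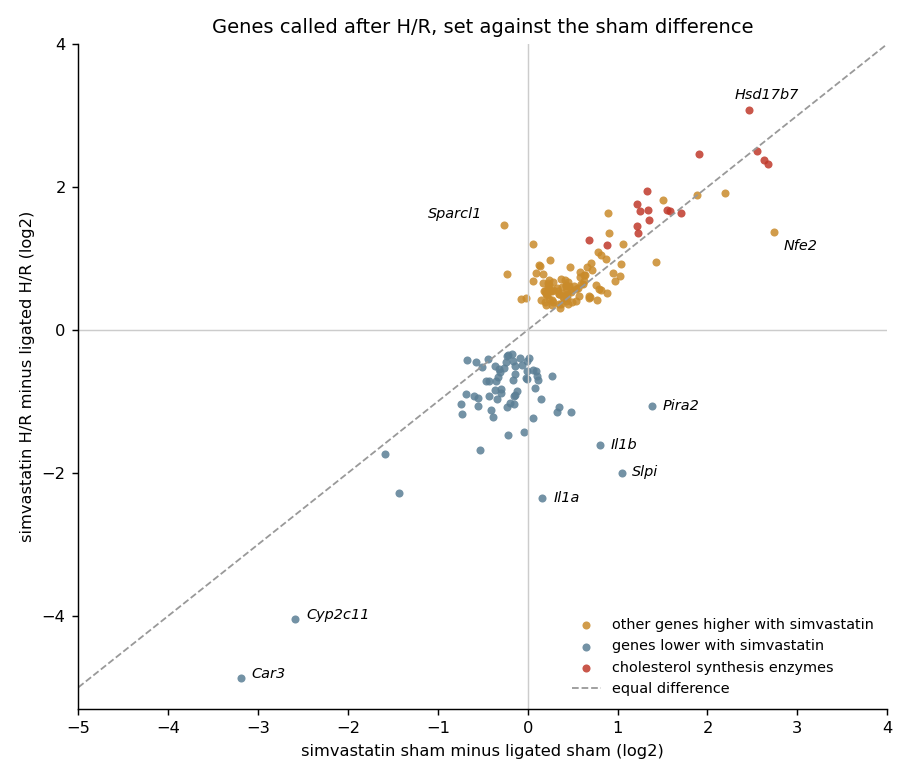
Log2 difference of simvastatin against untreated ligated rats for the 182 genes called after H/R, with the sham difference on the horizontal axis and the H/R difference on the vertical axis, from separate arrays. The dashed line marks equal differences. Cholesterol synthesis enzymes (red) lie near the line in the upper right, Car3 and Cyp2c11 lie at the lower left, and Il1b, Slpi and Pira2 lie below 0 after H/R and above 0 in sham rats.

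Further called genes outside the lists were chosen after their values were seen. Erg28, a scaffold of the sterol C4 demethylation complex in yeast, rose 2.30-fold (adjusted p = 1.09e-05), with 9.19 to 9.89 in simvastatin H/R livers and 7.74 to 8.84 in ligated H/R livers, and 1.06 on the log2 scale in sham rats. Acsl3, an acyl-CoA synthetase of lipid droplets, rose 1.57-fold (adjusted p = 0.0134), a call lost without ligated H/R replicate 4 and with the nonspecific covariate. Sparcl1, a secreted matrix protein of vessel walls, had 9.20, 9.47 and 10.05 in simvastatin H/R livers, and 7.22, 8.14 and 9.27 in ligated H/R livers, a 2.76-fold rise (adjusted p = 0.00447) beside a log2 difference of -0.26 in sham rats. Id1, an inhibitor of helix-loop-helix transcription factors, rose 1.74-fold (adjusted p = 0.0333), a call lost in 7 of 14 fits without 1 array and with each covariate. Nfe2, a transcription factor of platelet and red cell precursors, rose at least 1.74-fold after H/R, not above background in the ligated H/R group (adjusted p = 0.00148), and at least 3.59-fold in sham rats, not above background in the ligated sham group (adjusted p = 1.23e-07).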

How the data were processed

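Affymetrix single-colour arrays, hybridised with biotinylated total RNA per the labels, measured 35 liver samples. The authors deposited normalized log2 signals, and no source used here gives their normalization. That the scale is log2 follows from the range of the values, 1.51 to 13.79. Array medians lay at 3.97 to 4.29. Probe sets were named from the platform annotation: 19069 of 31139 (61.2%) had 1 gene symbol, 572 several and 11498 none listed. The brightest probe set stood for each of the 3986 genes with several. Of 63 called genes with several probe sets, 70 of 83 other probe sets had the same sign. Probes of related genes may share signal. The highest correlation of 2 arrays was 0.992. For arrays, the number of samples limits the precision.

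A limma 3.58.1 model (R 4.3.3) with 1 mean per group over all 35 arrays gave the differences, adjusted by the Benjamini-Hochberg method over 13439 genes. The model was also run on simulated data, which cannot show whether background or title ending shaped the calls. A gene was not above background in a group whose mean was not above the group's mean of the brightest nonspecific probe, and its fold is then a bound against the mean over that group's arrays of the higher of this probe and the gene's own signal. The members and the 32 lists (495 of 576 entries measured) were chosen with earlier results of these data known. Genes named were the 12 largest rises and 12 largest falls, all members of the 3 sterol lists, members with the smallest p (up to 3) of other lists, Klf2, Nos3, and the 8 smallest p of the difference between settings. Uncharacterised loci, receptors of smell and taste, and small RNA genes were left out. Array measures were compared by exact permutation. Promoters came from RefSeq GRCr8.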

Additional observations from a re-analysis of the deposited data

Results flagged for a closer look

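Single arrays stood apart from their group in 15 of 214 groups of arrays examined (7.01%), where chance gives about 1 in 20. In simvastatin H/R livers, replicate 1 had the highest Il1a signal, 8.09, next to 6.17, and the highest Car4 signal, 3.53. Replicate 7 had the highest Cyp2c11 signal, 5.12, next to 3.97, and replicate 2 the lowest Idi1 signal, 10.76, next to 11.11. Replicate 3 stood apart for Tsc22d3 at 9.40, Txnrd1 at 8.27 and Ripk3 at 4.39, and replicate 5 for Tnc at 3.66. In ligated H/R livers, replicate 2 stood apart for Car4 at 6.38 and Sod1 at 11.27, and replicate 6 for Il1a at 7.29, Col1a2 at 10.29 and Dlx1 at 2.04.

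Simvastatin sham replicate 1 had a 3' minus 5' difference of 4.30 for beta-actin and 2.20 for GAPDH, against at most 1.82 and 0.15 in the other arrays of its group. On its brightest probe set, Pira2 had opposite simvastatin effects after H/R and after sham. The difference of the effects was -2.44 by the limma interaction test. A second Pira2 probe set gave 1.04 after H/R, and the mean of its probe sets was not called.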

How the results depend on the processing

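No paired analysis was possible because the labels give the groups no shared replicate numbers. All 1508 values of the 54 called genes named, over the alternatives run, kept their direction, and 299 were no longer called. The title ending, the covariates and the fit without simvastatin sham replicate 1 were chosen after seeing the data. After H/R the calls numbered 744 (451 higher, 293 lower) with array weights, 369 (204, 165) at an adjusted p under 0.1, 89 (50, 39) with the nonspecific covariate, 23 (18, 5) with the ending as a block, and 0 (0, 0, with 0 mevalonate and 0 squalene-to-cholesterol enzymes) within ending 12, which holds fewer samples. In sham rats they numbered 22 (22, 0) with only the groups compared, 397 (304, 93) with array weights and 164 (128, 36) at an adjusted p under 0.1, and 34 were lower with every probe set tested. Calls of the difference between settings were 2 with trend and robust options, the percentile filter, quantile normalization, median centring or an adjusted p under 0.1, 3 with array weights, and 0 with the mean of probe sets. Leaving out 1 array gave 100 to 342 H/R calls (71 to 223 higher, 29 to 148 lower), 66 to 168 sham calls (55 to 132 higher, 11 to 36 lower), 1 to 2 calls of the difference, 6 mevalonate and 11 squalene-to-cholesterol enzymes throughout, 1 to 15 cell cycle genes and 0 to 3 cytokines. The H/R calls were 100, 121 and 107 without ligated H/R replicates 1, 2 and 4, 297 without replicate 3, and 342 and 114 without simvastatin H/R replicates 3 and 6. The sham calls were 66 without ligated sham replicate 1. Except as said, the causes were not tested. Signal over background limits Nos3, Mmp9 and most neutrophil and lymphocyte markers.

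Genes that did not pass changed sign near 0. Nos3 was 0.0030 with array weights, 0.0412 after quantile normalization and -0.11 to 0.0847 leaving out 1 array. Mnda was -0.0110 after quantile normalization, -0.0555 with the block, -0.0349 and -0.0430 with the beta-actin and nonspecific covariates, and -0.0649 to 0.19 leaving out 1 array. Ggps1 was -0.0263 with the block. Mylip was 0.29 within ending 12 and 0.11 with the nonspecific covariate. Insig2 was 0.11 with that covariate and -0.21 to 0.0413 leaving out 1 array. Scap was -0.000311 with that covariate.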
